A study of Drosophila melanogaster with 12 samples.

Results

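The proteins of the mitochondrial ribosome are encoded in the nucleus, and the fly genes for them carry symbols beginning with mRpL (large subunit) or mRpS (small subunit). All probe sets annotated with a single such symbol were taken, and a gene with several probe sets was represented by the one with the highest mean over the 12 arrays. This gave 66 probe sets and 64 genes, 43 of the large and 21 of the small subunit, among 13966 probe sets other than controls. The RefSeq gene table holds 73 genes with such symbols, and 9 of them had no probe set with a single symbol. In addition, 1 probe set with several symbols, such a symbol among them, was left out for that reason. After a filter that asked for more than 6 of the 12 log2 values above 2.93, 63 of the 64 genes remained, beside 11137 probe sets in all. The gene that did not pass was *mRpL41*, with a mean of 2.76, and it was in no test below.

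Heads of adult *y w* flies, a strain that carries the body- and eye-colour alleles of its name and is the wild type of the study with respect to the clock, were collected in constant darkness, and RNA of the pooled heads of 1 time point was hybridised to 1 Affymetrix Drosophila Genome 1 array. On the CA (cold/ambient) day the thermophase was at 25 °C (hours 14, 18 and 22) and the cryophase at 18 °C (hours 2, 6 and 10). On the AA (ambient/ambient) day that followed, the subjective thermophase (hours 14, 18 and 22) and subjective cryophase (hours 2, 6 and 10) were both at 25 °C. Each of these 4 groups had 3 arrays, named here by day and hour (CA2 to AA22), and since the 3 were of different hours the p-values rest on a spread in which any effect of the hour is included.

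Mitochondria translate the few messages of their own genome, nearly all for subunits of the respiratory chain and the ATP synthase, on a ribosome that descends from the bacterial one. Its proteins are made in the cytosol and imported, and its subunits are put together with ribosomal RNA transcribed inside the organelle. Many of the proteins have bacterial counterparts, numbered as in bacteria, and others with higher numbers are particular to mitochondria. Fly mutants of ribosomal genes of this organelle, such as *tko*, are known for slow development and seizures on mechanical shock. By their numbers 36 of the 64 genes belonged to bacterial families and 28 did not.

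The arrays were of heads by their markers: the photoreceptor genes *trp* (8.56 to 9.19, log2) and *Arr2* (11.26 to 11.81) and the neuronal genes *elav* (4.13 to 5.82) and *nSyb* (5.44 to 6.96) were well above the filter on all 12 arrays. Values of genes typical of the gut and of the male reproductive tract varied between the arrays, for reasons that were not tested. The digestive protease gene *betaTry* lay between 6.40 and 9.27, and the mean of 32 gut genes, relative to each gene's own 12-array mean, ranged between -0.31 and 0.80 in the CA thermophase, -0.44 and 0.40 in the CA cryophase, 0.10 and 0.32 in the AA subjective thermophase and -0.43 and -0.25 in the AA subjective cryophase. The mean of 17 male reproductive genes ranged between -0.29 and 0.52 in the CA thermophase, -0.36 and 0.28 in the CA cryophase, 0.033 and 0.37 in the AA subjective thermophase and -0.41 and 0.051 in the AA subjective cryophase. The control probe sets for *eIF-4a* differed between their 3′ and 5′ parts by 1.55 to 3.23 in the CA thermophase, 2.44 to 2.74 in the CA cryophase, 1.48 to 3.08 in the AA subjective thermophase and 0.96 to 2.40 in the AA subjective cryophase. In whole heads, less RNA per cell and fewer cells of a type cannot be told apart.

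The range of the mitochondrial ribosomal protein genes over the 2 days was close to that of all probe sets. The highest minus the lowest value of a gene over the 12 arrays lay between 0.21 and 0.96, with a median of 0.42, against a median of 0.44 over all 11137 probe sets. Of the 63 genes 22 (34.9%) ranged over more than 0.5, against 38.3% of all probe sets, and 0 over more than 1, against 6.11%. The cytosolic ribosomal protein genes, with a median range of 0.61 over 36 genes, and those of the respiratory chain and ATP synthase, with 0.58 over 68, spanned more. The large subunit (median 0.42 over 42 genes) and the small subunit (0.41 over 21) had similar ranges.

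The widest range belonged to *mRpL33*, the counterpart of a small bacterial large-subunit protein. Its values were 4.28, 4.23, 4.44, 4.16, 3.84 and 4.74 from CA2 to CA22 and 3.77, 4.25, 4.39, 4.61, 3.86 and 4.28 from AA2 to AA22. It was thus lowest at AA2, CA18 and AA18 and highest at CA22 and AA14. *mRpL55*, a large-subunit gene without a bacterial counterpart, was lowest at AA18 (6.50), AA2 (6.74) and CA18 (6.74) and highest at AA14 (7.26) and CA22 (7.26). The small-subunit gene *mRpS33* had its lowest values at AA18 (5.29) and CA18 (5.38) and its highest at AA14 (5.97) and CA10 (5.95). The next widest were *mRpS9* (0.65), whose bacterial counterpart reaches with its tail to the transfer RNA in the P site, and *mRpS28* (0.65). The narrowest ranges among the genes that passed the filter were those of *mRpL1* (0.21), counterpart of the bacterial protein of the mobile L1 stalk, *mRpS2* (0.21), *mRpL16* (0.27), *mRpL43* (0.27) and *mRpS18A* (0.30).

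**Figure D1:**
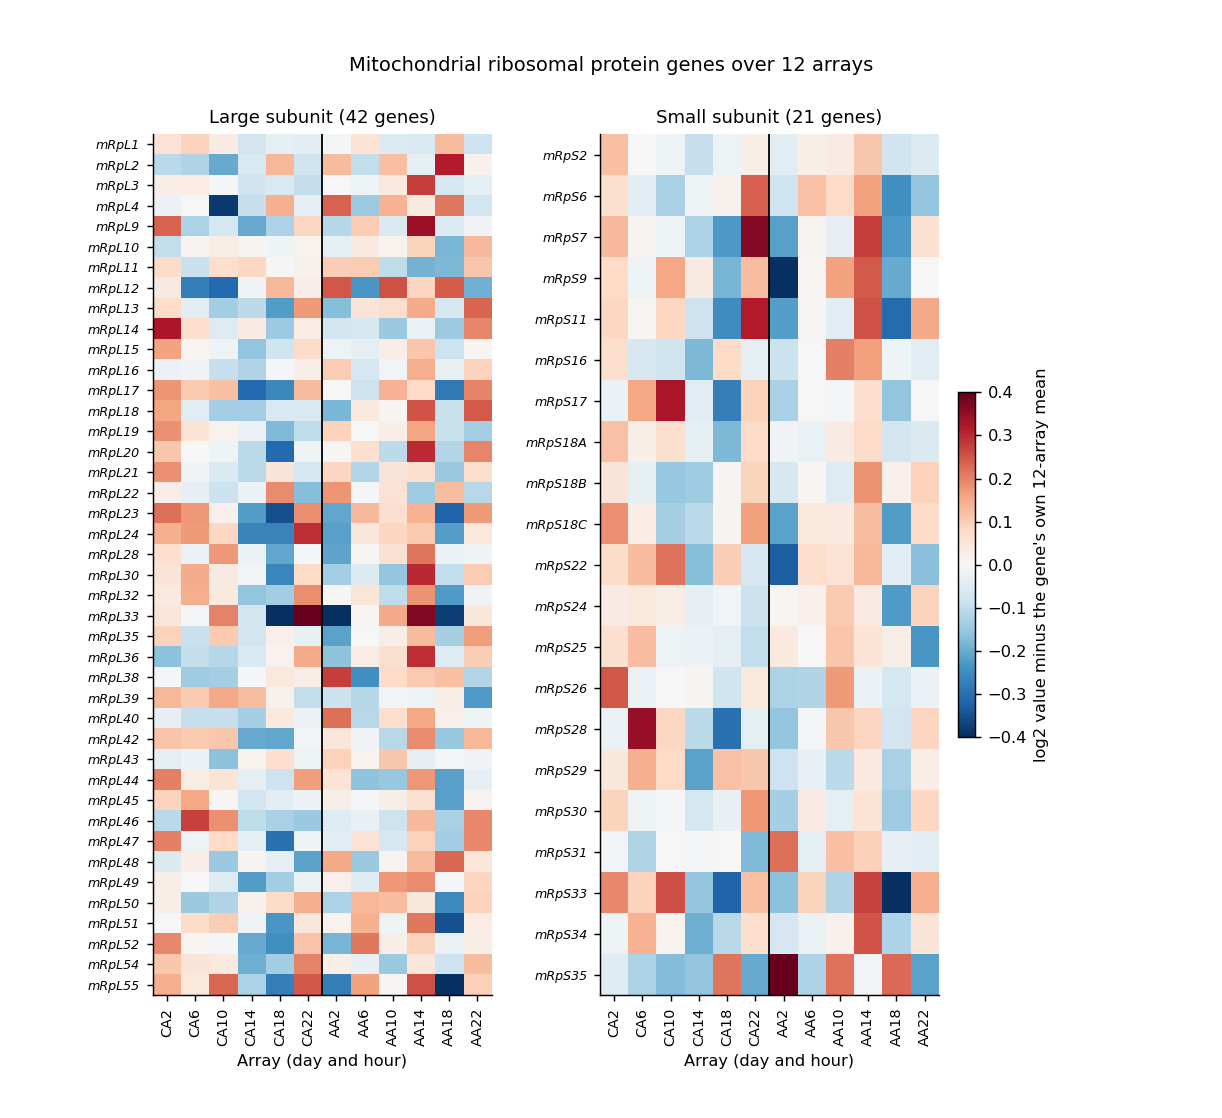
Each cell is the log2 value of a mitochondrial ribosomal protein gene on 1 array minus that gene's own mean over the 12 arrays, for 42 large-subunit genes (left) and 21 small-subunit genes (right), with arrays in time order, a line between the CA and AA days, and values past the ends of the colour bar drawn in its end colours. Columns CA14 and AA18 are mostly below the mean (blue) and columns CA2 and AA14 mostly above it (red).

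Much of the variation was shared by the genes. The first principal component held 52.7% of the variance of the 63 genes, against 37.6% over all probe sets, 64.7% over the cytosolic ribosomal protein genes and 68.3% over the respiratory chain list. At AA14 54 of the 63 genes were above their own 12-array mean, at CA2 47 and at AA10 41. At CA14 only 9 were, at AA18 12, at CA18 20 and at AA2 24. The other 5 arrays had between 32 and 39. Over all probe sets this share ran between 41.7% and 57.8%, with 53.6% at AA14, 51.2% at CA2, 46.9% at CA14 and 54.0% at AA18. The median deviation of the genes from their means was 0.12 at AA14, 0.071 at CA2, -0.079 at CA14 and -0.090 at AA18, and the SD of these array medians within the groups of 3 was 0.067.

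Both subunits took part. At AA14 35 of 42 large-subunit and 19 of 21 small-subunit genes were above their means, at CA14 7 and 2, and at AA18 9 and 3. At AA2 the subunits parted, with 20 of 42 large-subunit but 4 of 21 small-subunit genes above. The genes with and without bacterial counterparts were alike at AA14 (31 of 36 and 23 of 27) and AA18 (6 of 36 and 6 of 27), and at CA2 30 of 36 with a counterpart were above against 17 of 27 without. AA14 was the highest array of 16 of the 63 genes, against 10.6% of all probe sets. AA18, CA14 and CA18 were the lowest of 14, 12 and 12, against 8.91%, 6.38% and 5.17%. No test was applied to these counts.

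The order of the arrays partly followed the *eIF-4a* control. Its 3′ minus 5′ difference was 2.74, 2.44, 2.73, 1.85, 1.55 and 3.23 from CA2 to CA22 and 0.96, 2.40, 1.54, 2.39, 1.48 and 3.08 from AA2 to AA22. The 4 arrays with the fewest genes above their means, CA14, AA18, CA18 and AA2, were among the 5 with a difference under 2, and AA10, the other of these, had 41 above. CA22 and AA22, with the largest differences, had 36 and 39 genes above their means. The part of this control in the result was not tested beyond the fits with it as a covariate that are given below.

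**Figure D2:**
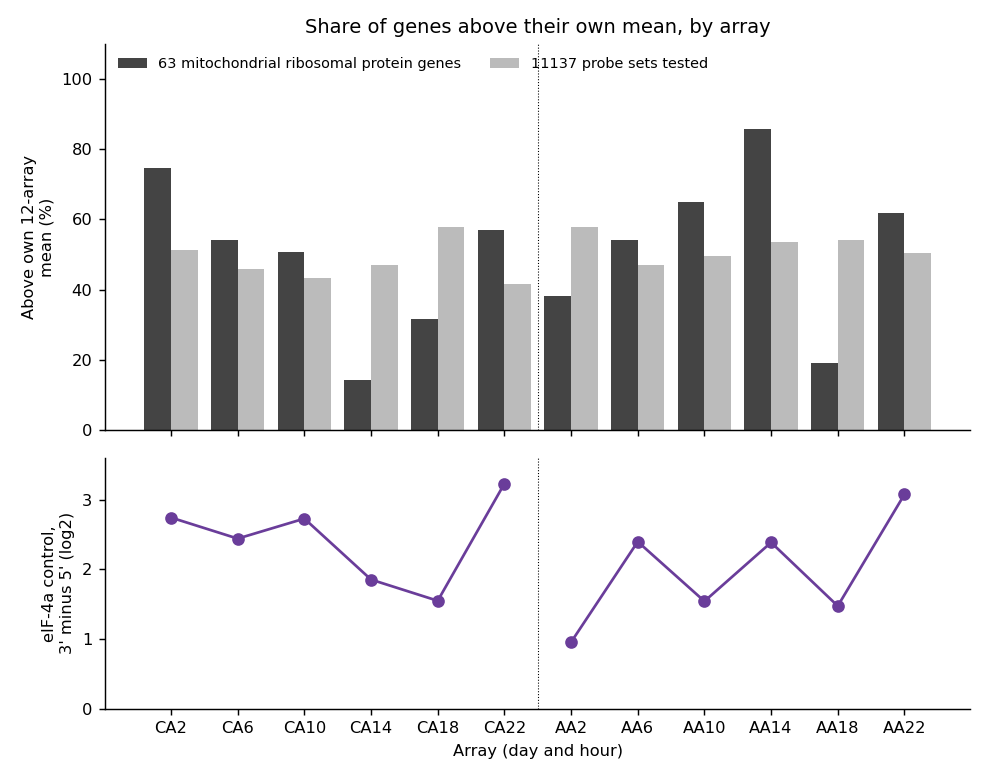
Upper panel, percent of the 63 mitochondrial ribosomal protein genes (dark bars) and of the 11137 probe sets tested (light bars) above their own 12-array mean on each array; lower panel, the difference between the 3′ and 5′ control probe sets of *eIF-4a* on the same arrays (log2). The dark bar is lowest at CA14 (9 of 63 genes) and highest at AA14 (54 of 63).

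Within the CA day, the thermophase at 25 °C was compared with the cryophase at 18 °C. The phases are also of different hours, so that temperature and hour of day cannot be told apart in this comparison. None of the 63 genes passed an adjusted p of 0.05 in limma, and 1 of all 11137 probe sets did (0.00898%). At an unadjusted p under 0.05 there were 3 of the 63, all lower in the thermophase, against 3.87% of all probe sets. Nevertheless 47 of the 63 were lower and 16 higher in the thermophase, with a median difference of -0.082, where the median over all probe sets was 0.0 and 50.2% were higher. The differences lay between -0.30 and 0.23, and the median standard error of a single gene's difference was 0.11. The mean of the 63 genes, relative to each gene's own 12-array mean, overlapped between the phases. It ranged between -0.087 and 0.046 in the CA thermophase and 0.001 and 0.072 in the CA cryophase. At CA22 36 genes were above their own mean, against 34 at CA6 and 32 at CA10. In the same contrast 30 of 32 gut genes (median 0.32) and 15 of 17 male reproductive genes (median 0.21) were higher in the thermophase. With the mean of those lists as a covariate the median of the 63 genes was -0.137, and with the *eIF-4a* control as a covariate -0.056. Without CA22, where the gut genes were highest, it was -0.137, and without CA2 it was -0.051.

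The 3 genes with the smallest p, described next, did not pass the adjusted threshold. Differences are given ± their standard error. *mRpL42*, particular to mitochondria, had 6.22, 6.21 and 6.41 in the thermophase (CA14, CA18 and CA22), against 6.53, 6.52 and 6.52 in the cryophase (CA2, CA6 and CA10). The groups did not overlap, and the difference of -0.25 ± 0.10 (SE, n = 3 each) had an adjusted p of 0.995 in limma. *mRpS28*, a small-subunit gene numbered outside the bacterial families, had 5.03, 4.84 and 5.09 in the thermophase and 5.11, 5.48 and 5.22 in the cryophase, again without overlap, though CA22 and CA2 were only just apart (difference -0.28 ± 0.11, adjusted p = 0.995, limma). *mRpL46*, whose human counterpart sits in the central protuberance of the large subunit, had 4.79, 4.77 and 4.74 in the thermophase, against 4.78, 5.17 and 5.08 in the cryophase. For this gene CA2 lay among the thermophase values.

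*mRpL17*, the counterpart of a bacterial protein near the exit of the peptide tunnel, was low at CA14 (5.09) and CA18 (5.14) but at CA22 (5.53) equal to the cryophase values of 5.58, 5.51 and 5.52. Its mean difference of -0.28 ± 0.14 came with an SD of 0.24 in the thermophase and 0.04 in the cryophase. On the other side, *mRpL12*, the counterpart of the bacterial stalk protein that recruits translation factors, had 5.91, 6.05 and 5.95 in the thermophase and 5.96, 5.65 and 5.61 in the cryophase (difference 0.23 ± 0.15). *mRpL36*, counterpart of a small bacterial protein that binds zinc, had 5.93, 6.005 and 6.14, against 5.83, 5.90 and 5.88 (0.16 ± 0.10), and *mRpL50* averaged 5.76 ± 0.06 in the thermophase and 5.60 ± 0.09 in the cryophase (SD, n = 3 each). All 4 had an adjusted p of 0.995 in limma.

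Besides *mRpL42* and *mRpS28*, the groups did not overlap, with lower values in the thermophase, for *mRpL1*, *mRpL3*, *mRpL19*, *mRpL45*, *mRpS24* and *mRpS25*. These 8 of 63 genes stood against 4.61% of all probe sets. *mRpL3* is the counterpart of a bacterial protein that reaches toward the catalytic centre, and *mRpL45*, in mammals, holds the ribosome to the inner membrane at the tunnel exit. By contrast 3 genes, *mRpL2*, *mRpL36* and *mRpL43*, had all thermophase values above all cryophase values, against 4.33% of all probe sets.

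**Figure D3:**
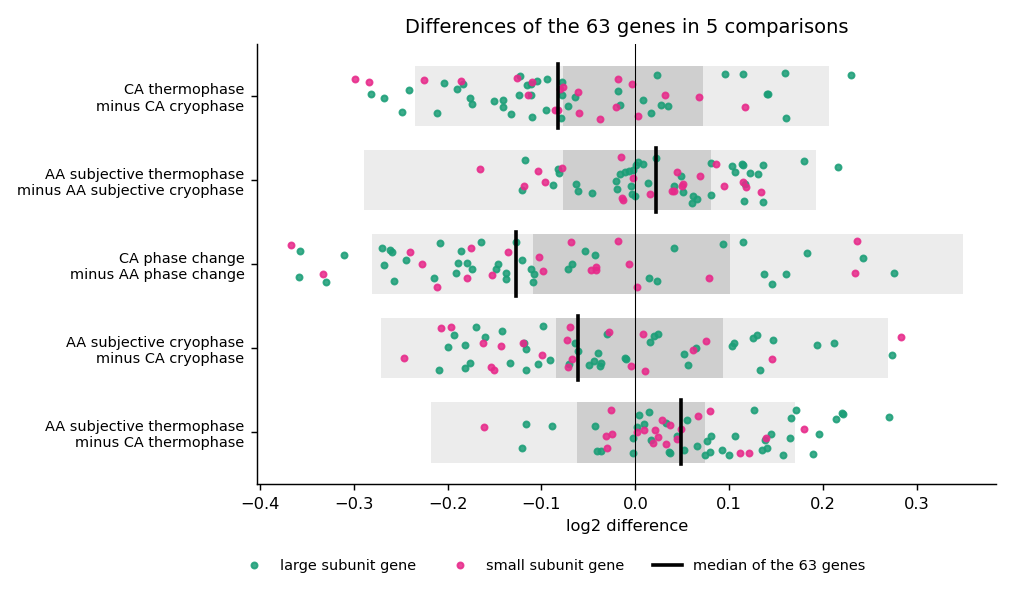
Log2 difference of each of the 63 genes in 5 comparisons, with large-subunit genes in green, small-subunit genes in pink, their median as a black line, and the 5th to 95th percentile (light band) and the quartiles (darker band) of all 11137 probe sets. The median lies at -0.082 for the CA phases, 0.022 for the AA phases, -0.127 for the difference between those differences, -0.061 for the cryophase hours of AA minus CA and 0.049 for the thermophase hours of AA minus CA.

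On the AA day the subjective thermophase and subjective cryophase were both at 25 °C, and their comparison asks whether a difference between these hours remains without a temperature step. In limma 0 of the 63 genes and 0 of 11137 probe sets (0%) passed the adjusted threshold. At an unadjusted p under 0.05 it was 0 of the 63, against 5.39% of all probe sets. Here 37 of the 63 were higher and 25 lower in the subjective thermophase, with a median of 0.022 against 0.007 over all probe sets. That sign was not stable: the median was -0.030 without AA14, 0.101 without AA18, -0.011 with the *eIF-4a* control as a covariate and -0.029 with the gut and male lists as a covariate.

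Only 2 genes had groups that did not overlap on this day. *mRpS18B*, one of several genes for the counterpart of bacterial S18, had 5.09, 4.93 and 5.005 in the subjective thermophase and 4.85, 4.92 and 4.86 in the subjective cryophase (0.13 ± 0.09, adjusted p = 0.897, limma), where 4.83% of all probe sets lay wholly higher. *mRpL43* had 5.39, 5.41 and 5.40, against 5.51, 5.43 and 5.53 (-0.088 ± 0.070, adjusted p = 0.924, limma), where 3.89% lay wholly lower. The smallest p belonged to *mRpL30*, the counterpart of bacterial L30, with 5.49, 5.09 and 5.29 in the subjective thermophase and 5.05, 5.13 and 5.03 in the subjective cryophase (0.22 ± 0.11, adjusted p = 0.883). AA18 lay among the cryophase values. *mRpL18* averaged 4.53 ± 0.19 and 4.35 ± 0.12, and *mRpL22*, whose bacterial counterpart lines the peptide tunnel, 5.11 ± 0.14 and 5.23 ± 0.09 (SD, n = 3 each).

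The phase change of CA was set against that of AA as a test of the difference itself. None of the 63 genes and 0 of 11137 probe sets (0%) passed the adjusted threshold in limma. Of the 63, 3 genes, *mRpL42*, *mRpL46* and *mRpL30*, had an unadjusted p under 0.05, against 3.19% of all probe sets, and in each the CA change was the lower. The CA change was below the AA change in 48 of the 63 genes, with a median of -0.127 where that of all probe sets was -0.008. In size the largest of these 3 were *mRpL46* (-0.36 ± 0.15) and *mRpL30* (-0.36 ± 0.16), followed by *mRpL42* (-0.33 ± 0.14), and *mRpS28* had -0.33 ± 0.16, each with an adjusted p of 0.997. The opposite sign was seen for *mRpL12* (0.28 ± 0.21), *mRpL50* (0.24 ± 0.15), *mRpS6* (0.24 ± 0.16) and *mRpL43* (0.18 ± 0.10).

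This median rested largely on a pair of arrays. Without CA14 and AA14 it was -0.021, an alternative chosen after the values were seen, and with the *eIF-4a* control as a covariate it was -0.036. Without AA14 alone it was -0.051, and without AA18 alone -0.190.

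At the cryophase hours 2, 6 and 10, the AA day was at 25 °C and the CA day at 18 °C, so that their comparison sets the temperatures against each other at the same hours. The AA arrays were also of the following day, so that temperature and day cannot be told apart in it. In limma 0 of the 63 genes and 0 of 11137 probe sets (0%) passed the adjusted threshold, and 1 of the 63, *mRpL39*, had an unadjusted p under 0.05, against 6.38% of all probe sets. The days share their hours, and with hour of day as a block 0 of the 63 genes and 15 probe sets (0.135%) passed. In that fit 7 of the 63 had an unadjusted p under 0.05, against 16.1% of all probe sets, and 1, *mRpS35*, an adjusted p under 0.2, against 7.48%. In the AA subjective cryophase 21 genes were higher and 42 lower than in the CA cryophase, with a median of -0.061, against 0.003 over all probe sets. The *eIF-4a* difference was also the lower in AA at these hours, and with it as a covariate the median turned to 0.047, with 41 genes higher and 22 lower. The sign of the median at 25 °C against 18 °C thus depended on this covariate. Its values did not overlap between the groups (0.96 to 2.40 in AA and 2.44 to 2.74 in CA). The part of this control and that of temperature cannot therefore be told apart here.

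*mRpL39*, a large-subunit protein related in sequence to threonyl-tRNA synthetases, had 5.04, 5.01 and 5.11 in the AA subjective cryophase, against 5.26, 5.23 and 5.27 in the CA cryophase. The groups were well apart and each was tight (-0.20 ± 0.09, adjusted p = 0.721, limma). *mRpL30* had 5.05, 5.13 and 5.03, against 5.24, 5.33 and 5.22 (-0.19 ± 0.11, adjusted p = 0.721). For *mRpL14*, whose bacterial counterpart lies at the face toward the small subunit, the values 4.57, 4.58 and 4.49 were below 4.96, 4.71 and 4.59, the closest pair being AA6 and CA10. In all 8 of the 63 genes lay wholly lower in AA, the others being *mRpL42*, *mRpL54*, *mRpS22*, *mRpS29*, which encodes a GTP-binding protein known in mammals as DAP3, and *mRpS33*, beside 6.04% of all probe sets.

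Wholly higher in AA were *mRpL2* and *mRpL43*, beside 7.88% of all probe sets. *mRpL2*, the counterpart of a bacterial protein next to the peptidyl transferase centre, had 5.84, 5.62 and 5.84 in the AA subjective cryophase, against 5.60, 5.59 and 5.51 in the CA cryophase (0.19 ± 0.11, adjusted p = 0.721, limma). *mRpL43* had 5.51, 5.43 and 5.53, against 5.38, 5.39 and 5.25 (0.15 ± 0.07, adjusted p = 0.721). The largest mean differences in this direction, those of *mRpS35* (0.28 ± 0.15) and *mRpL12* (0.27 ± 0.15), came with overlap: *mRpS35* had 6.33, 5.81 and 6.15, against 5.88, 5.80 and 5.76, with AA6 among the CA values.

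Thus 3 genes had all 3 values at 18 °C on 1 side of both sets at 25 °C that they were compared with. *mRpL2* and *mRpL43* were lower in the CA cryophase than in the CA thermophase and in the AA subjective cryophase, and *mRpL42* was higher. For *mRpL2* the CA thermophase values were 5.65, 5.85 and 5.63, close to the CA cryophase maximum of 5.60, and for *mRpL43* 5.43, 5.48 and 5.40, of which CA22 was just above CA6 with 5.39. For *mRpL42* the AA subjective cryophase values were 6.47, 6.40 and 6.31, against 6.52 to 6.53 at 18 °C. These comparisons share the 3 arrays of the CA cryophase, so that the one does not repeat the other. Of all 11137 probe sets 1.4% lay wholly lower at 18 °C in both comparisons, as did 2 of the 63 genes, and 1.74% wholly higher, as did 1 of the 63. None of the 3 genes passed the adjusted threshold in either.

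**Figure D4:**
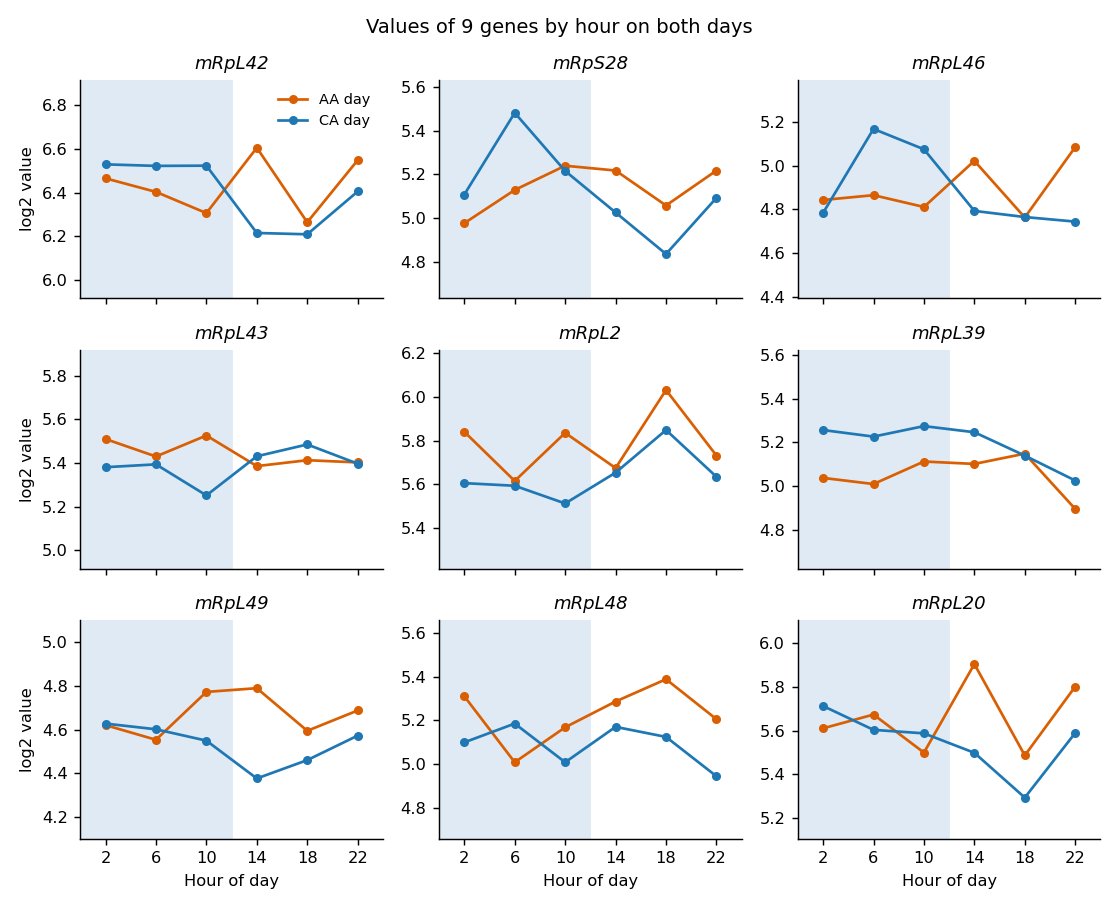
Log2 values of 9 genes by hour of day on the AA day (orange) and the CA day (blue), 1 array per point, with the hours of the cryophase shaded; each panel spans 1 log2 unit. *mRpL42*, *mRpS28* and *mRpL46* head the CA phase comparison, *mRpL43*, *mRpL2* and *mRpL39* differ between the days in the shaded hours, and *mRpL49*, *mRpL48* and *mRpL20* head the comparison in the unshaded hours.

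At the thermophase hours 14, 18 and 22 both days were at 25 °C. In limma 0 of the 63 genes and 0 of 11137 probe sets (0%) passed the adjusted threshold, and 3 of the 63 had an unadjusted p under 0.05, all higher in AA, against 3.02% of all probe sets. Of 12 muscle genes 9 were lower in AA (median -0.24), and their part in the result was not tested. In the AA subjective thermophase 50 of the 63 genes were higher than in the CA thermophase, by a median of 0.049, against 0.011 over all probe sets, of which 45.5% were lower. *mRpL49* had 4.79, 4.59 and 4.69 in AA, against 4.38, 4.46 and 4.57 in CA (0.22 ± 0.09, adjusted p = 0.999, limma). *mRpL48*, another gene for a protein of the central protuberance in mammals, had 5.29, 5.39 and 5.20, against 5.17, 5.12 and 4.94 (0.21 ± 0.10, adjusted p = 0.999). In these 2 genes the days did not overlap, as in 4.25% of all probe sets in this direction, and 0 lay wholly lower, against 3.21%. *mRpL20*, whose bacterial counterpart is needed early in the assembly of the large subunit, had 5.90, 5.49 and 5.80, against 5.50, 5.29 and 5.59 (0.27 ± 0.11, adjusted p = 0.999), with AA18 among the CA values. *mRpS6*, whose bacterial counterpart binds S18, was on the other side with an average of 5.73 ± 0.21 in AA and 5.89 ± 0.14 in CA (SD, n = 3 each).

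Most of this difference between the days came from hour 14, which was singled out after the values were seen. There, 57 of the 63 genes were higher at AA14 than at CA14, with a median of 0.23, against 54.3% and 0.02 over all probe sets. Of the 63, 21 (33.3%) were higher by more than 0.3, against 7.04% of all probe sets, and 0 lower by more than 0.3, against 9.41%. At hour 2, with 25 °C on the AA and 18 °C on the CA day, 16 were higher and 47 lower in AA (median -0.129), where 51.7% of all probe sets were higher. The other hours were closer to balance over the 63 genes. At hour 6 30 were higher and 33 lower (-0.016), and at hour 10 37 and 26 (0.018). At hour 18 it was 29 and 33 (-0.004), and at hour 22 27 and 36 (-0.015). Of all probe sets 47.9%, 51.1%, 46.9% and 54.3% were higher at these hours. The small subunit alone was less even, with 7 higher and 13 lower at hour 18 and 5 and 16 at hour 22. With 1 array for each day and hour, these differences have no replicate and no test. Without both arrays of hour 14 the median of the 3-hour comparison was -0.016.

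The largest difference at hour 14 was that of *mRpL9*, with 6.12 at AA14 and 5.58 at CA14. *mRpS34* had 5.22 and 4.77, *mRpL33* 4.61 and 4.16, *mRpS33* 5.97 and 5.54, and *mRpL49* 4.79 and 4.38. The 6 genes that were lower at AA14 were *mRpL11* (4.63 and 4.90), *mRpL39* (5.10 and 5.25), *mRpL22* (5.01 and 5.13), *mRpL14*, *mRpL43* and *mRpS26*. Other values of these 2 arrays differed as well. The *eIF-4a* difference was 2.39 at AA14 and 1.85 at CA14, the mean of the gut genes 0.14 and 0.40, that of 9 neuronal genes -0.29 and 0.030, with *elav* at 4.13 and 5.37, and that of 12 muscle genes -0.21 and 0.097. Their part in the result was not tested. From AA14 to the next array, AA18, 52 of the 63 genes were lower, with a median of -0.224, against 48.1% of all probe sets. From CA10 to CA14, the step up in temperature, 45 were lower, with a median of -0.081, against 48.5%. Steps without a change of temperature also moved the list. From CA2 to CA6 42 were lower (-0.079) and from CA22 to AA2 39 (-0.102), while from AA10 to AA14 46 were higher (0.086).

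**Figure D5:**
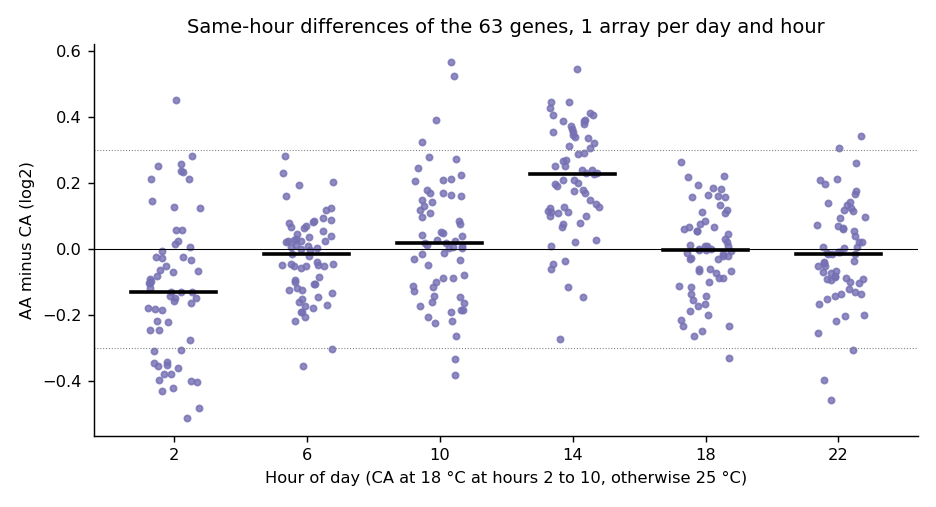
Difference between the AA and the CA day at the same hour for each of the 63 genes (points), with the median (black bar) and dotted lines at 0.3 and -0.3 (log2); each difference is of 1 array against 1 array. The cloud lies above 0 at hour 14 (57 of 63 genes) and mostly below at hour 2 (16 of 63 above).

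Other genes of mitochondrial gene expression were set beside these. The small-subunit gene *tko*, the fly counterpart of bacterial S12 in the decoding centre, and *bonsai*, that of S15, encode further proteins of this ribosome under other names. *tko* ranged between 5.30 at CA14 and 5.60 at AA18, and *bonsai* between 4.31 at AA18 and 4.74 at CA22. Together with translation factors such as *mEFTu1*, *mEFTs* and others, they formed a list of 8 genes, of which 5 were lower in the CA thermophase (median -0.060) and all 8 higher at AA14 than at CA14 (median 0.21). The elongation factor *mEFTu1* was 0.92 ± 0.36 higher in the AA subjective cryophase than in the CA cryophase, with an adjusted p of 0.721 in limma. In this comparison temperature, day and the *eIF-4a* control cannot be told apart, which also holds for *COX5A* and *Hsp60A* below. Mitochondrial aminoacyl-tRNA synthetases, which charge the transfer RNAs for this ribosome, had 6 of 8 genes higher in the CA thermophase (median 0.017) and 4 of 8 higher at AA14 (median 0.005). Genes of mitochondrial DNA replication and transcription had 6 of 10 higher in the CA thermophase (median 0.034).

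The nuclear genes for the respiratory chain and the ATP synthase, which assemble with the products of this ribosome, had 27 of 68 higher and 41 lower in the CA thermophase, with a median of -0.063. In the AA phases 44 of 68 were higher (0.041), and at AA14 against CA14 48 of 68 (0.13). *ATPsynB*, for the peripheral stalk of the ATP synthase, had a difference of -0.42 ± 0.13 in the CA phases, and *COX5A* of cytochrome c oxidase one of 0.41 ± 0.14 between AA and CA at the cryophase hours, with adjusted p of 0.995 and 0.721 in limma. For the cytosolic ribosome 12 of 36 protein genes were higher and 24 lower in the CA thermophase (-0.062), while 28 of 36 were higher in the AA subjective thermophase (0.16). At AA14 33 of those 36 were above CA14 (0.27), and they were also higher in AA at hour 18 (33 of 36, median 0.13) and hour 22 (30 of 36, 0.071). At those hours 29 and 27 of the 63 mitochondrial ribosomal protein genes were higher in AA. *RpLP2*, a stalk protein of that ribosome, had -0.49 ± 0.21 in the CA phases (adjusted p = 0.995).

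The mitochondrial import list, with the chaperones that fold arriving proteins, had 8 of 14 genes higher in the CA thermophase (median 0.038). *Hsc70-5*, the matrix motor chaperone, had 0.44 ± 0.18 there, and *Hsp60A* had 0.63 ± 0.21 between AA and CA at the cryophase hours, with adjusted p of 0.995 and 0.721 in limma. Regulators linked in flies to growth and to nuclear genes of mitochondria had 3 of 8 higher and 5 lower in the CA thermophase. Their median was -0.132, and among the lower were *Max* with -0.39 ± 0.14 and *ewg* with -0.30 ± 0.13. In limma 0 genes of these lists passed the adjusted threshold in any of the 5 comparisons.

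A pair of genes, *mRpL11* and *mRpL12*, whose bacterial counterparts form the base and the tip of the factor-binding stalk, had a second probe set. For *mRpL11* these disagreed in sign: the one used had 0.017 in the CA thermophase minus the cryophase and -0.121 in the AA subjective thermophase minus the CA thermophase, and the other -0.139 and 0.084. For *mRpL12* the CA phase difference was 0.23 for the one used and 0.025 for the other, and the AA minus CA difference at the cryophase hours was 0.27 and -0.068. The values given above for both genes therefore hold for 1 probe set each.

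A daily rhythm was looked for over both days with F24, which is how much of the variance a 24-h sine wave takes up, set against 100 random time orders within days. At an estimated false discovery rate of 0.2 none of the 63 genes was selected, and 1 of 11137 probe sets was (0.00898%). The median F24 was 0.17 for the 63 genes and 0.19 for all probe sets, and 0 of the 63 reached an unadjusted permutation p under 0.05, against 7.49% of all probe sets. Harmonic regression in limma, at an adjusted p under 0.2, also called 0 of the 63, and 12 probe sets in all. The highest F24 were those of *mRpL45* (0.47), *mRpL54* (0.43), *mRpL39* (0.43), *mRpS25* (0.40) and *mRpL2* (0.38). *mRpL45* had 7.04, 7.10, 6.95, 6.87, 6.90 and 6.92 from CA2 to CA22, and 6.96, 6.94, 6.96, 7.003, 6.72 and 6.96 from AA2 to AA22, so that the lower values after hour 6 of CA were not seen on the AA day, where AA18 alone stood apart.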

How the data were processed

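The authors deposited log2 expression values, made by robust multi-array averaging (RMA, version not stated) of Affymetrix Drosophila Genome 1 arrays; the log base was inferred from the range of the values. RMA gives the arrays similar distributions (medians of 4.35 to 4.39), so differences are relative to the array. Of 14010 probe sets 44 controls were left out, and probe sets with more than 6 of 12 values above 2.93 (the 20th percentile) were tested. Gene symbols came from the platform annotation, of which 64 member symbols matched RefSeq. The 12 arrays were fitted in 1 limma model (4 group means, 8 residual and 4.24 prior degrees of freedom), two-sided, with Benjamini-Hochberg adjustment over 11137 probe sets; hour of day as a block was an alternative where the days were compared. The number of arrays limits the precision, and whether each hour had a culture of its own is not given in the sources used here. The formula of F24 was not given; random orders were drawn within each day. Named genes were the 4 with the smallest p in each direction of a comparison, the 5 widest and narrowest ranges, the 5 highest F24, genes whose probe sets disagree, and up to 2 of each companion list; genes named for hour 14 or for groups that do not overlap were chosen after their values were seen. Members and lists were chosen with earlier results of these data known. No sequences or coordinates were used. Both methods were tested on simulated data. The fits were run in limma 3.58.1 under R 4.3.3. Figures were drawn with matplotlib 3.10.9, and tables were joined with pandas 2.3.3 and numpy 2.4.6 in Python 3.11.15.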

Additional observations from a re-analysis of the deposited data

How the results depend on the processing

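Alternatives covered array weights, covariates, quantile normalization, the filter on low values, the model of the variance, hour of day as a block, averaged probe sets, a fit of only the arrays compared and leaving out each array. In these fits of the 5 comparisons 0 of the genes passed the adjusted threshold, and 0 of the 896 alternative values of the 40 differences of named genes passed it. With array weights 17 genes passed an adjusted p of 0.2 in limma for the CA phases (13.5% of all probe sets did) and 17 for the thermophase hours of AA minus CA (13.0%). The weight of CA14 was 6.12, and those of the other arrays lay between 0.42 (AA2) and 1.69 (CA6). Results with array weights for these comparisons thus rest largely on CA14. The medians of the list moved more. For the CA phases the median was -0.137 with the gut and male lists as a covariate and between -0.137 (without CA22) and -0.051 (without CA2) when each array was left out. For the AA phases it lay between -0.030 (without AA14) and 0.101 (without AA18). For the difference between the phase changes it was -0.036 with the *eIF-4a* covariate, -0.021 without both arrays of hour 14, and between -0.190 and -0.051 with each array left out. For the cryophase hours of AA minus CA it was 0.047 with the *eIF-4a* covariate and between -0.078 and -0.012 with each array left out. For the thermophase hours it was 0.134 with array weights, -0.016 without both arrays of hour 14, and between 0.002 (without AA14) and 0.113 (without AA18). The cause of these shifts was not tested. A fit with only the arrays compared does not exist for the difference between the phase changes, which uses all arrays. The labels number no replicates, but CA and AA arrays pair by hour. With hour of day as a block no median changed. At an unadjusted p under 0.05 that fit had 7 of the 63 for the cryophase hours (1 without the block). It had 7 for the difference between the phase changes (3 without) and 4 for the thermophase hours (3 without). Over all 11137 probe sets these counts rose as well, to 1795 for the cryophase hours (711 without the block). They rose to 1051 for the difference between the phase changes (355 without) and to 775 for the thermophase hours (336 without). Periodicity was recomputed without the filter, with quantile normalization, with day means kept, for each day alone, by harmonic regression, and by that regression with each array left out, and 0 genes were selected. With 3 arrays a group and differences near their standard errors, small shifts of single genes were not detectable here.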

Other observations

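Genes of nucleolar and cytosolic ribosome biogenesis, the machinery that builds the other ribosome, numbered 12. Of these 6 were higher in the CA thermophase than in the CA cryophase (median -0.007) and 3 higher in the AA subjective thermophase than in the AA subjective cryophase (median -0.055). *Non1*, a nucleolar GTPase, had -0.23 ± 0.09 and *l(2)k09022* -0.20 ± 0.09 in the CA phases, both with an adjusted p of 0.995 in limma.

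Fat body genes, of which *Obp99b* had the smallest p, had 2 of 11 higher in the CA thermophase (median -0.082) and 2 of 11 higher in the AA subjective cryophase than in the CA cryophase (median -0.227). *Obp99b* itself differed by -0.51 ± 0.14 in both comparisons, with adjusted p of 0.995 and 0.721 in limma. These share the CA cryophase arrays.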
